A study of Drosophila melanogaster with 8 samples.

Results

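Mitochondrial ribosomal protein genes, taken as the protein-coding genes whose symbol in the release 6 annotation of Drosophila melanogaster begins with mRpL or mRpS, were examined for open chromatin at their promoters. The rule found 73 genes, 47 of the large subunit (mRpL) and 26 of the small subunit (mRpS), among 13945 protein-coding genes of the autosomes and the X chromosome. Of the members, 12 lay on 2L, 12 on 2R, 17 on 3L, 21 on 3R and 11 on X, and none on the small chromosome 4.

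The study sorted embryonic cells of the Vas::EGFP strain, in which GFP-tagged Vasa marks the germline, from embryos laid overnight at 25°C. Primordial germ cells (PGCs) were taken as the GFP-positive cells and somatic cells as the GFP-negative cells of the same genotype, so the somatic sample is a mixture of all the other cell types of late embryos. Both were frozen and then profiled by ATAC-seq, in which a transposase cuts and tags accessible DNA, in 2 replicates per cell type. The authors deposited 1 peak list per cell type, called on the mean of both replicates, so that no spread between replicates and no reads per peak are known, and no difference between the lists was tested.

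Mitochondrial ribosomes translate the few proteins that the mitochondrial genome encodes, all of them subunits of the respiratory chain and ATP synthase. Their protein components are encoded in the nucleus, made in the cytoplasm and imported, and are needed in every cell that respires. In flies, mitochondria are also handed to the next generation through the egg and are concentrated in the germ plasm from which PGCs form.

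The 5 promoters printed here are those of genes that the results turn on. They run from 250 bases before to 49 bases after the first transcribed base, on the strand of the gene, and were read from the RefSeq release 6 (dm6) sequence. The coordinates given are those of the printed bases and not of the peaks. mRpS14 had the highest PGC and somatic peaks of these genes, at chrX:19480189-19480488 on the minus strand. mRpS6 came next in PGCs, at chr3L:4364300-4364599 on the plus strand. mRpS18B, printed at chr2L:20097204-20097503 on the minus strand, had the highest PGC peak without a somatic one. The edge of that peak lay 398 bp from its start site, outside the printed bases. The start site of its neighbour Kua lay inside the peak. mRpL48, at chr2L:1710212-1710511 on the plus strand, had a peak in both lists and a promoter with 2 of the motifs described further on, and was chosen after its values were seen. mRpL24 had a peak in neither list, at chr2L:4945312-4945611 on the minus strand. Capitals mark CAGCTG and CACGTG (palindromic E-boxes, read by basic helix-loop-helix proteins), TATCGATA (the DNA replication-related element), and GGTCACAC or its reverse complement (the core of the promoter element called Ohler motif 1).
mRpS14: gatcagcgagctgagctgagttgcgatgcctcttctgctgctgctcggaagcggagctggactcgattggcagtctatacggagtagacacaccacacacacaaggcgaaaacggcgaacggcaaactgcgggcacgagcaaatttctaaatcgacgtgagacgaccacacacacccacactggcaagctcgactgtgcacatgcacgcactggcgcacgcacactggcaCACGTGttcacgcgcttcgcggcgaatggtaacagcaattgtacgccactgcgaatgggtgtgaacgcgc
mRpS6: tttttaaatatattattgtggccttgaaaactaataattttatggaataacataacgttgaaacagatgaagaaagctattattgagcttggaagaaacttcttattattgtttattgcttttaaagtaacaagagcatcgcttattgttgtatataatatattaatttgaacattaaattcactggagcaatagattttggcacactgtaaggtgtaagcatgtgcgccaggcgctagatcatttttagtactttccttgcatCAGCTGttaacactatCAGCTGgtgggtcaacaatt
mRpS18B: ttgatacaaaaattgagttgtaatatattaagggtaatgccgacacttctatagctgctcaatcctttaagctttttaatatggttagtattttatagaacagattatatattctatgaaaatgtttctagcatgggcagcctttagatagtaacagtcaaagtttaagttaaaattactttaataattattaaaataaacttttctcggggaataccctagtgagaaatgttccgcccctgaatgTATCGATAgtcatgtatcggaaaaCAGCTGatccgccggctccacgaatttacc
mRpL48: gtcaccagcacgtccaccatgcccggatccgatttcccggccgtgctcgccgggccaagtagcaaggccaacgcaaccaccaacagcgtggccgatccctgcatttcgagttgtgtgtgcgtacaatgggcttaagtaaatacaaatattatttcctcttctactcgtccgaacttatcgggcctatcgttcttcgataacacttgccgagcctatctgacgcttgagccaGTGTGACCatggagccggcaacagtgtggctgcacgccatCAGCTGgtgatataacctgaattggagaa
mRpL24: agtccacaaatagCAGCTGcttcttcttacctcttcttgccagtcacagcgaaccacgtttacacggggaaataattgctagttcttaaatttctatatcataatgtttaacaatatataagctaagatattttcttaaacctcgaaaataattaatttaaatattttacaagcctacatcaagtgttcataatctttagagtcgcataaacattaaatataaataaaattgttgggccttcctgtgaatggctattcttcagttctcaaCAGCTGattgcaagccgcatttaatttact

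A gene was counted as having a promoter peak when the edge of a peak lay within 500 bp of one of its annotated start sites. In the PGC list, 64 of the 73 genes had such a peak (87.7%, exact 95% binomial interval 77.9 to 94.2%), beside 51.8% of all protein-coding genes. In the somatic list, 25 genes had one (34.2%, interval 23.5 to 46.3%), beside 31.2% of all protein-coding genes. The PGC share of the members thus lay above that of all genes, and the interval of their somatic share included it. These intervals cover counting error over genes only.

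The 73 genes fell into 4 classes. Both lists had a peak at 23 genes (31.5%, beside 27.5% of all protein-coding genes), and the PGC list alone at 41 (56.2%, beside 24.3%). The somatic list alone had a peak at 2 genes (2.74%, beside 3.72%), and neither list at 7 (9.59%, beside 44.5%). At 500 bp the largest class was therefore that of genes with a PGC peak and no somatic peak. A distance of 1000 bp instead left 36 members with both (36.8% of all genes) and 32 with a PGC peak alone (21.1%). Among the members with a PGC peak at 500 bp, 35.9% also had a somatic peak (interval 24.3 to 48.9%), whereas 53.1% of all genes with a PGC peak did. Among genes with a single annotated start site these shares were 36.2% (interval 24 to 49.9%) and 47.8%. Among genes with a head-to-head neighbour within 500 bp they were 42.9% (interval 28.8 to 57.8%) and 54.5%, so in both subsets the interval included the share of all genes.

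Both subunits gave similar shares. A PGC peak was present at 42 of the 47 large-subunit genes (89.4%, interval 76.9 to 96.5%) and at 22 of the 26 small-subunit genes (84.6%, interval 65.1 to 95.6%). A somatic peak was present at 17 large-subunit genes (36.2%, interval 22.7 to 51.5%) and at 8 small-subunit genes (30.8%, interval 14.3 to 51.8%). The intervals of the subunits overlapped in each list. The split follows the symbols, and the human counterparts of mRpS18A and mRpS30 sit in the large subunit in spite of their names.

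Other gene groups with housekeeping roles were set beside them. The 93 cytoplasmic ribosomal protein genes (RpL, RpS and RpLP symbols) had a PGC peak in 91.4% (interval 83.8 to 96.2%) and a somatic peak in 53.8% (interval 43.1 to 64.2%). The 87 genes of oxidative phosphorylation, which assemble with the products of mitochondrial translation, had a PGC peak in 73.6% (interval 63 to 82.4%) and a somatic peak in 42.5% (interval 32 to 53.6%). Without 24 paralogs whose symbols end in L, 90.5% of the other 63 had a PGC peak (interval 80.4 to 96.4%) and 50.8% a somatic peak (interval 37.9 to 63.6%). The PGC share of the cytoplasmic group was close to that of the members, and the members had the lowest somatic share of the 3 groups. The interval of the members' somatic share overlapped those of both other groups.

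**Figure D1:**
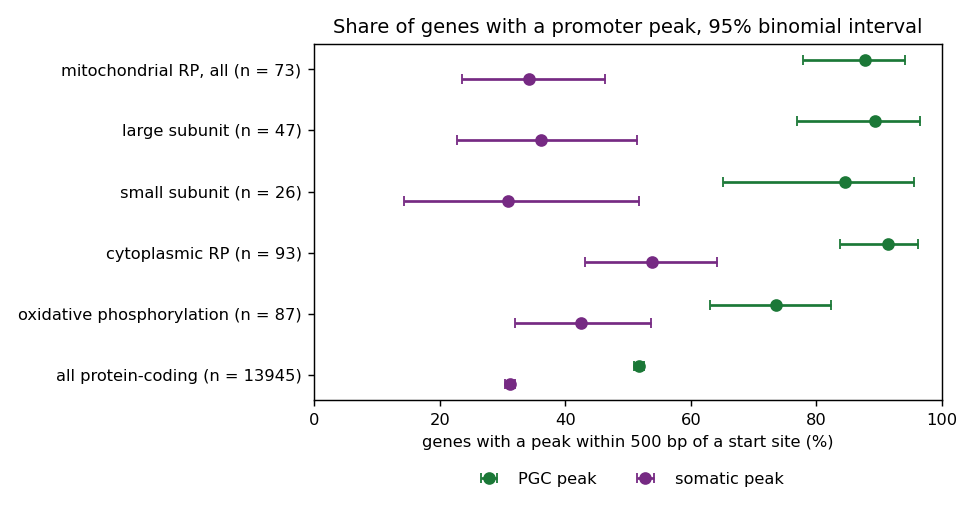
Share of genes with a peak within 500 bp of a start site (x axis, percent) for 6 gene groups, in the PGC list (green) and the somatic list (purple), with exact 95% binomial intervals. The mitochondrial ribosomal protein (RP) genes stand at 87.7% in PGCs, above all protein-coding genes at 51.8%, and at 34.2% in somatic cells, where all protein-coding genes stand at 31.2%.

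As a check of the sort, 11 germline genes such as vas, nanos and aub all had a PGC peak and 4 of them had a somatic peak. Of 19 genes of somatic tissues such as Mef2, elav and wg, 17 had a somatic peak, 18 had a PGC peak and 16 had both, among them trh at 742.3 RPKM in PGCs. Promoter peaks at somatic regulators were thus present in the PGC list as well, and whether somatic cells in the PGC sort contributed to the members' peaks was not tested. The lists held 19504 PGC and 17411 somatic peaks on the chromosomes used, both reached down to 50 RPKM, and their median heights were 62.1 and 56.9 RPKM. A gene without a peak therefore had coverage under that limit or no region that the caller kept, and not necessarily closed chromatin.

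Heights are given in RPKM, read coverage scaled to region length and to the mapped reads of the library, at the summit of the averaged coverage, and the highest promoter peak stands for each gene. In PGCs the 64 members with a peak ranged from 50 to 538.3 RPKM, with a median of 97.6 and quartiles of 65.6 and 149.3 RPKM. All protein-coding genes with a PGC peak had a median of 94.9 and quartiles of 67.6 and 143.9 RPKM. Members thus had a PGC peak more often than all genes, but their peaks were of ordinary height. Where no other start site lay within 1000 bp, the 9 members with a PGC peak had a median of 62.1 RPKM, beside 83.5 RPKM over all such genes. In somatic cells the 25 members with a peak ranged from 50.3 to 227.3 RPKM with a median of 59.1 RPKM, beside 62.0 RPKM over all genes with a somatic peak. Of these 25 peaks, 13 stood below 60 RPKM, close to the lower limit of the list, a count that was not made over all genes.

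The same 3 genes led both lists, and 2 of them belong to the small subunit. mRpS16, which shares its upstream region with the zinc-finger gene cg (combgap), was the highest member of both lists. It reached 538.3 RPKM among the PGC peaks and 227.3 RPKM among the somatic ones. In both lists its summit lay 1230 bp from its own start site and 1133 bp from that of cg. mRpL53 stood at 445.8 and 155.6 RPKM. It lies inside AGO1, a gene of the microRNA pathway, and overlaps CG33155, so its peak cannot be assigned to a single gene. mRpS14 followed with 355.8 and 99.3 RPKM in a promoter it shares with Naa15-16, which encodes a subunit of an N-terminal acetyltransferase.

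In PGCs the next members were mRpS6 at 297.5, mRpL2 at 276.6, mRpL17 at 223.8, mRpS18B at 202.0 and mRpL34 at 193.8 RPKM. The PGC summits of mRpL2, mRpL17 and mRpS18B lay 821, 853 and 623 bp from their own start sites. The mRpL17 summit was at the same base in the somatic list. In somatic cells mRpL17 at 87.8, mRpL34 at 81.1, mRpL35 at 78.8, mRpL55 at 74.7 and mRpL4 at 73.7 RPKM came after the same 3 genes. A height of 80 RPKM was reached by 5 members in the somatic list (6.85%, beside 7.16% of all protein-coding genes) and by 40 in the PGC list (54.8%, beside 32%). At the low end of the PGC list stood mRpL38 (50 RPKM), mRpL45 (51.1 RPKM), mRpL37 (53.5 RPKM), mRpS24 (54.2 RPKM) and mRpS28 (56.4 RPKM). None of these 5 genes had a somatic peak. In PGCs, 10 members had a peak below 60 RPKM, a count that was not made over all genes.

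**Figure D2:**
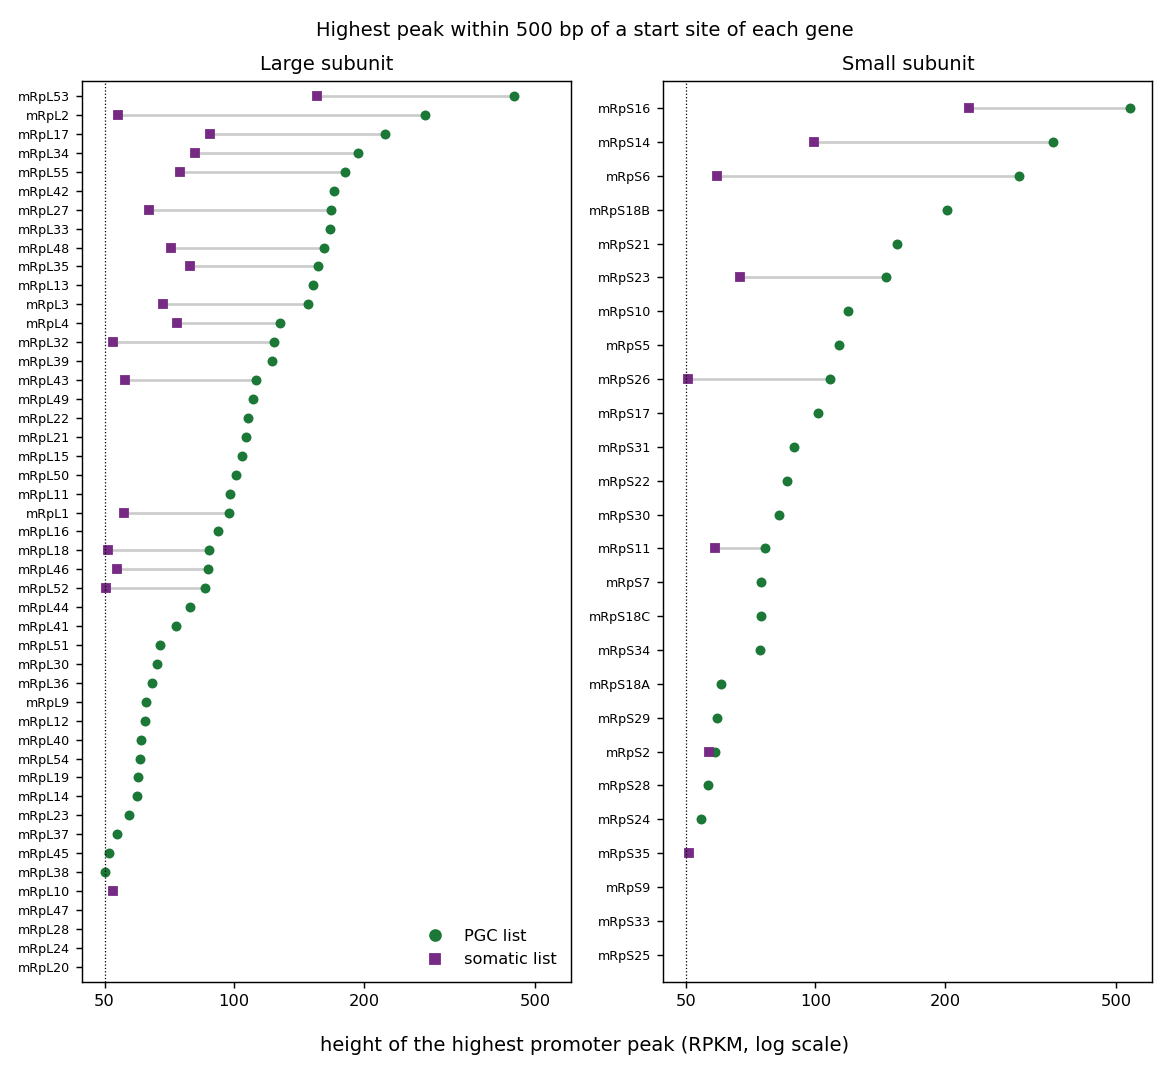
Height of the highest promoter peak (x axis, RPKM on a log scale) of each of the 47 large-subunit genes (left) and 26 small-subunit genes (right) in the PGC list (green circles) and the somatic list (purple squares), ordered by PGC height. Grey lines join the values of 1 gene, the dotted line marks 50 RPKM, the lowest height in both lists, and genes with no symbol had no promoter peak in either list.

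Grouped by the place of the proteins in the ribosome, as known from bacteria and mammals, the values differed within each group. Near the catalytic centre of the large subunit, mRpL16 had a PGC peak alone (91.8 RPKM), and mRpL2, mRpL3, mRpL4 and mRpL27 had a peak in both lists, at 276.6, 148.2, 127.8 and 167.3 RPKM in PGCs and at 53.8, 68.5, 73.7 and 63.5 RPKM in somatic cells. The PGC summits of mRpL2 and mRpL27 lay 821 and 1276 bp from their own start sites. Around the stalk that receives translation factors, mRpL11 (97.7 RPKM) and mRpL12 (62.1 RPKM) had a PGC peak alone and mRpL10 a somatic peak alone. At the exit of the peptide tunnel, mRpL17 had a peak in both lists, mRpL22 (107.4 RPKM), mRpL23 (57.1 RPKM) and mRpL45 (51.1 RPKM) in PGCs alone, and mRpL24 and mRpL47 in neither. In the central protuberance, which in mammals holds proteins found only in mitochondria, mRpL46 (86.7 and 53.3 RPKM) and mRpL48 (161.6 and 71.2 RPKM) had a peak in both lists, and mRpL38 and mRpL40 (60.8 RPKM) in PGCs alone.

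In the small subunit, conserved proteins with a bacterial counterpart were found in each class but 1. mRpS16, mRpS6, mRpS14, mRpS11 and mRpS2 had a peak in both lists, mRpS5 (113.5 RPKM), mRpS7 (74.9 RPKM), mRpS10 (119.1 RPKM) and mRpS17 (101.2 RPKM) in PGCs alone, and mRpS9 in neither. mRpS29, whose human counterpart DAP3 binds GTP, had a PGC peak of 59.0 RPKM alone. Proteins that mitochondrial ribosomes gained include mRpS26 (108.4 and 50.5 RPKM) and mRpS23 (145.6 and 67.0 RPKM) with a peak in both lists, mRpS22 (86.1 RPKM), mRpS31 (89.2 RPKM) and mRpS34 (74.4 RPKM) in PGCs alone, mRpS35 in somatic cells alone, and mRpS25 and mRpS33 in neither. The members of these groups were picked as examples after their values were seen, and the groups are not complete.

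Among the 23 members with a peak in both lists, the PGC peak was the higher one in all 23, beside 91.3% of the 3834 protein-coding genes with both. The ratio of PGC to somatic height ran from 1.04 to 5.14 with a median of 2.17, and the median over all genes with both was 1.93. Because the heights of separate lists need not share a scale, the ratio is read against that of all genes, and the members' median was close to it. In 17 of the 23 genes the highest peaks of both lists overlapped, and there the median ratio was 2.37, beside 2.07 over all such genes.

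The largest ratio was that of mRpL2, with PGC and somatic heights of 276.6 and 53.8 RPKM, a ratio of 5.14, but its highest peaks in the 2 lists did not overlap. mRpS6 had 297.5 and 59.1 RPKM, a ratio of 5.03, in overlapping peaks, followed by mRpS14 with 3.58, mRpL53 with 2.87 and mRpL27 with 2.63. The smallest ratio was that of mRpS2, at 58.6 and 56.6 RPKM (1.04). mRpS11 (1.31), mRpL46 (1.63), mRpL52 (1.70) and mRpL18 (1.71) came next, with somatic peaks of 50.3 to 58.4 RPKM. At these 4 genes the highest peaks of the lists did not overlap, so the ratio compares different regions.

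**Figure D3:**
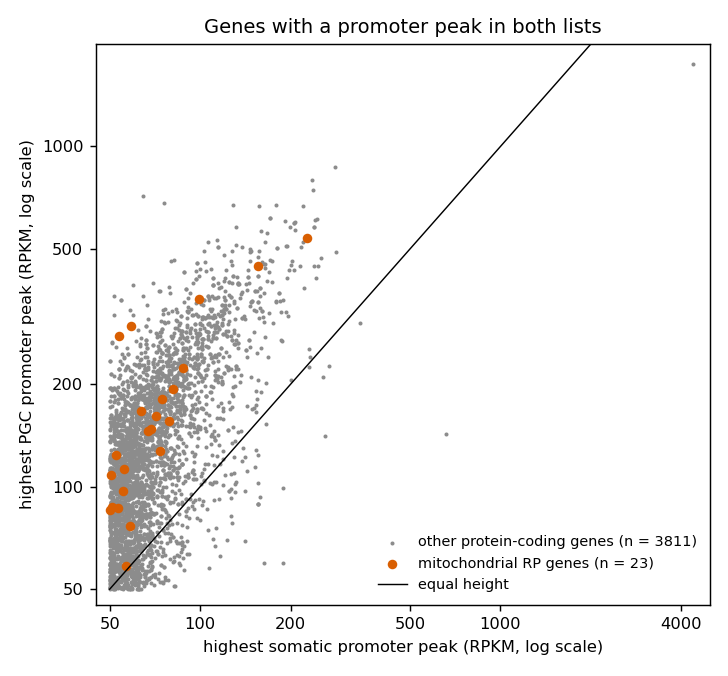
Height of the highest PGC promoter peak (y axis) against that of the highest somatic promoter peak (x axis), both in RPKM on log scales, for the protein-coding genes with a peak in both lists. The 23 mitochondrial ribosomal protein (RP) genes (orange) all lie above the line of equal height, within the cloud of the 3811 other genes (grey).

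PGC peaks were also wider. The highest PGC peak of the members had a median width of 375 bp (quartiles 200 and 725 bp). Over all genes with one it was 400 bp (quartiles 200 and 750 bp). Of the members, 10 had a peak of at least 1000 bp, the widest at mRpL27 (2700 bp), a count that was not made over all genes. Somatic peaks of the members were 200 bp wide at the median, as over all genes. Of the 25, 6 were 50 bp wide (24%, beside 20.2% of all genes with a somatic peak). Where both lists had a peak, that of PGCs was the wider in 20 of 23 genes, beside 80.8% of all genes. The widest somatic peak of a member was that of mRpS16 (1550 bp), where the PGC peak spanned 2300 bp.

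Members with a PGC peak but no somatic peak had lower PGC peaks. Their median was 74.9 RPKM, beside 148.2 RPKM for the members with both, and over all protein-coding genes these medians were 74.8 and 125.5 RPKM. The highest of the 41 were mRpS18B at 202.0, mRpL42 at 170.7, mRpL33 at 167.1, mRpS21 at 154.4 and mRpL13 at 152.7 RPKM. The summits of mRpS18B and mRpS21 lay 623 and 917 bp from their own start sites. Near mRpS18B the next somatic peak, of 60.6 RPKM, lay 548 bp from the start site, just outside the distance used.

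Set by PGC height, the share of members with a somatic peak was 1 of 22 (4.55%, interval 0.115 to 22.8%) from 50 to 75 RPKM, beside 29.1% of all genes in that range. It was 5 of 11 (45.5%, interval 16.7 to 76.6%) from 75 to 100 RPKM, beside 41.6%, and 6 of 15 (40%, interval 16.3 to 67.7%) from 100 to 150 RPKM, beside 61.9%. From 150 RPKM on it was 11 of 16 (68.8%, interval 41.3 to 89%), beside 89.4%. Members lay below all genes in 3 of the 4 ranges, and in the lowest and the highest range the interval did not include the share of all genes. The cytoplasmic ribosomal protein genes gave 7.14% in the lowest range and 85.7% in the highest. These ranges were chosen after the heights had been seen.

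The 2 members with a somatic peak alone were mRpL10 (52.4 RPKM) and mRpS35 (51.0 RPKM). Both peaks were 50 bp wide and close to the limit of the list, and the nearest PGC peak lay 522 bp away from mRpL10 (68.0 RPKM) and 599 bp away from mRpS35 (53.1 RPKM). The 7 genes without a peak in either list were mRpL20, mRpL24, mRpL28, mRpL47, mRpS9, mRpS25 and mRpS33. For mRpL20 and mRpS33 the nearest PGC peak was 634 and 747 bp away. For mRpL28 it was 1326 bp, for mRpS25 2332 bp, for mRpL24 3840 bp, for mRpS9 4417 bp and for mRpL47 8658 bp away. The nearest somatic peak lay 675 bp from mRpL28, 747 bp from mRpS33, and between 1367 bp (mRpL20) and 23882 bp (mRpS25) from the other 5 genes. The class of mRpL10, mRpS35, mRpL20, mRpS33 and mRpL28 thus depends on the distance chosen, and mRpL24, mRpL47, mRpS9 and mRpS25 had no peak of either list within 1000 bp. The class with a PGC peak alone depended on it as well, with 41 members at 500 bp (24.3% of all genes) and 32 at 1000 bp (21.1%). For example, the nearest somatic peak lay 509 bp from mRpL15 and 510 bp from mRpS17.

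The members were short genes, often arranged head to head with a neighbour. Their median length was 909 bp, beside 2166 bp over all protein-coding genes, and 67 of 73 (91.8%) had a single annotated start site, beside 73.5%. A gene on the opposite strand started within 500 bp upstream of 53 members (72.6%), beside 27.4% of all protein-coding genes, with a median distance of 264 bp between the start sites. Within 250 bp there were 25 such members (34.2%), beside 14.2%. Several of these partners also act in mitochondria: Mitofilin, which shapes the inner membrane, is next to mRpL35, ATPsynD, a subunit of ATP synthase, next to mRpL55, and HtrA2, a mitochondrial protease, next to mRpL11. Others have different roles, such as norpA (phospholipase C of phototransduction) next to mRpL33, Cdk1 (the mitotic kinase) next to mRpS7 and Dg (dystroglycan) next to mRpL34.

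This arrangement moved with the peak shares. Members with such a partner had a PGC peak in 49 of 53 cases (92.5%, interval 81.8 to 97.9%) and all protein-coding genes with a partner in 79.4%. Members without one had a PGC peak in 15 of 20 cases (75%, interval 50.9 to 91.3%), beside 41.4% of all genes without one. In the somatic list the shares were 39.6% of members beside 45% of all genes with a partner, and 20% beside 26% without one. Within each class the members' PGC share was above that of all genes and their somatic share was below it, though the intervals of the somatic shares, 26.5 to 54% and 5.73 to 43.7%, included the shares of all genes. Among the 13 members with no other start site within 1000 bp, 9 had a PGC peak (69.2%, interval 38.6 to 90.9%), beside 37.3% of all such genes.

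Many peaks counted for a member had their summit closer to another gene. In 31 of 64 members (48.4%) the summit of the highest PGC peak was nearest to a start site of the member itself. Over all genes with a PGC peak this share was 76%. In the somatic list it was 11 of 25 members (44%), beside 82%. Among genes with a head-to-head neighbour within 500 bp it was 36.7% of members beside 52.5% in PGCs, and 38.1% beside 61.8% in the somatic list. In 37 of the 64 PGC peaks the start site of another gene lay inside the peak, a count that was not made over all genes. mRpL44 is an example, with its PGC summit on the start site of Snr1, a subunit of the Brahma chromatin remodelling complex, and 290 bp from its own. At mRpS6 the summit of 297.5 RPKM lay 474 bp from its start site and 26 bp from that of Cip4, and at mRpS26 it lay 453 bp from its own and 23 bp from that of CG13698. At mRpL39, beside the proteasome gene Prosbeta2, and at mRpS7, beside Cdk1, the summit was instead 10 and 14 bp from the member's own start site. The median distance of the PGC summit from the nearest start site of the gene was 216.5 bp in the members and 112 bp over all genes.

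When only peaks with their summit no nearer to another gene were counted, 39 members (53.4%, interval 41.4 to 65.2%) had a PGC peak, beside 43.3% of all protein-coding genes, and 13 (17.8%, interval 9.84 to 28.5%) had a somatic peak, beside 27.1%. When a start site had to lie inside the peak, 46 members (63%, interval 50.9 to 74%) had a PGC peak, beside 37.2%, and 10 (13.7%, interval 6.77 to 23.8%) a somatic peak, beside 12.2%. By the summit rule the intervals of both member shares included the shares of all genes, and the somatic share lay below that of all genes instead of above it. By the start site rule the PGC share lay above that of all genes. Where a peak covered the start sites of both genes of a pair, their accessibility cannot be told apart.

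**Figure D4:**
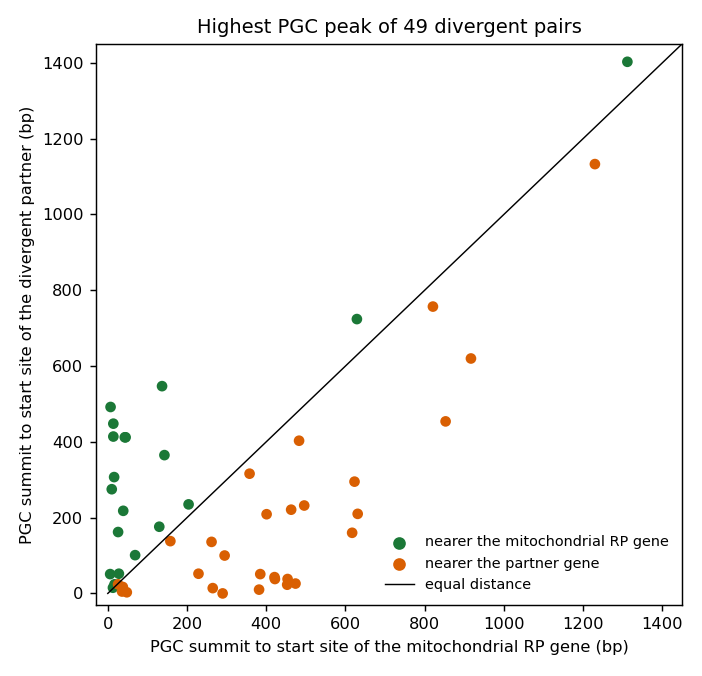
Distance in bp from the summit of the highest PGC peak to the start site of the mitochondrial ribosomal protein (RP) gene (x axis) and to that of its divergent partner (y axis), for the 49 pairs with a PGC peak. Orange points below the line lie nearer the partner (29 pairs) and green points nearer the mitochondrial RP gene or at equal distance (20 pairs). Several orange points with x between 200 and 500 bp have y below 60 bp. The summit lay within 60 bp of the partner in 18 pairs and within 60 bp of the mitochondrial RP gene in 17, and some pairs count in both.

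The promoters shared sequence features that the rule did not use. CAGCTG occurred in the 300-base window of 40 members (54.8%, interval 42.7 to 66.5%), beside 17.7% of all protein-coding genes. The word is its own reverse complement, so both strands read the same, and it neither contains nor lies within any other motif searched. Large-subunit genes had it in 27 of 47 promoters (57.4%) and small-subunit genes in 13 of 26 (50%). It was present in 9.68% of the promoters of cytoplasmic ribosomal protein genes and in 24.1% of those of oxidative phosphorylation genes (interval 15.6 to 34.5%). The share was 54.7% in members with a divergent partner and 55% in those without one, beside 25.1% and 14.9% of all genes.

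Most matches lay close to the start site. In 35 members (47.9%, interval 36.1 to 60%) a match began between base -50 and base 44, beside 9.3% of all genes. Bases are counted from 0 at the first transcribed base, and this range was not set in advance. In 22 members (30.1%) a match began at or after the start site, beside 4.33% of all genes. Over members with the word the match nearest to the start site began at a median of base 4, beside -46 over all genes with it. The printed promoters show this: it begins at base 20 in mRpS18B and mRpL24, at base 21 in mRpL48, and at bases 14 and 30 in mRpS6. Of 45 matches in members, 31 (68.9%) had an A or a T on both sides, beside 47.2% of the matches in all genes. Positions in other genes of mitochondrial translation are given at the end.

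**Figure D5:**
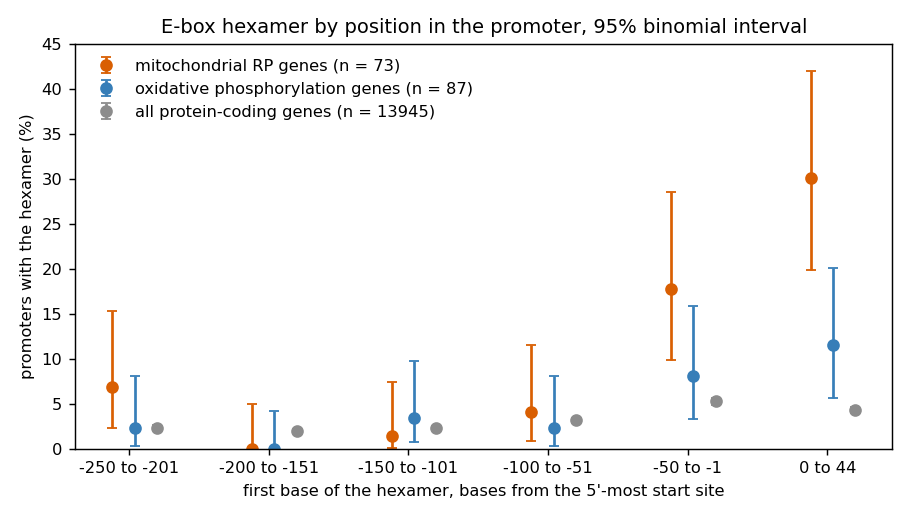
Share of promoters (y axis, percent) in which CAGCTG, the E-box hexamer described before, begins at a given distance from the 5′-most start site (x axis, steps of 50 bases, the last of 45), for mitochondrial ribosomal protein (RP) genes (orange), oxidative phosphorylation genes (blue) and all protein-coding genes (grey), with exact 95% binomial intervals. The members reach 17.8% and 30.1% in the last 2 steps, where all genes reach 5.26% and 4.33%.

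TATCGATA was found on either strand in 15 members (20.5%), beside 9.36% of all genes, and GGTCACAC on either strand in 8 (11%), beside 7.7%. Cytoplasmic ribosomal protein genes had these words in 30.1% and 16.1%, and oxidative phosphorylation genes in 10.3% and 18.4%. In mRpS18B, TATCGATA begins at base -4, and in mRpL48 the reverse complement of GGTCACAC begins at base -19. At least 1 of CAGCTG, TATCGATA and GGTCACAC was present in 53 members (72.6%), beside 30.5% of all genes. The other E-box, CACGTG, occurred in 5 members (6.85%, beside 4.2%), among them mRpS14, where it begins at base -20. TATAAA on either strand occurred in 46.6% (beside 45.8%), and GAGAG, the core of the GAGA factor motif, in 16.4% (beside 29.7%). GAGAG was present in 17.2% of cytoplasmic ribosomal protein genes and in 23% of oxidative phosphorylation genes. CAGGTA, the core of the motif of the early embryonic activator Zelda, occurred in 9.59% of members, beside 6.24% of all genes. A match of these letters is a description of the window and not a binding site.

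Members with and without CAGCTG had peak shares with overlapping intervals. A PGC peak was present at 33 of 40 members with the word (82.5%, interval 67.2 to 92.7%) and at 31 of 33 without it (93.9%, interval 79.8 to 99.3%). A somatic peak was present at 35% and 33.3%, and the median PGC heights were 97.7 and 97.4 RPKM. Of the 7 genes without a peak in either list, 6 had it (mRpL24, mRpL28, mRpL47, mRpS9, mRpS25 and mRpS33), and mRpL20 did not. Over all genes, a PGC peak was present at 63% of those with CAGCTG and at 49.3% of those without. All 8 members with GGTCACAC had a PGC peak, beside 87.9% of all genes with it, and 12 of the 15 with TATCGATA had one, beside 80.8%.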

How the data were processed

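ATAC-seq was made from sorted PGCs and sorted somatic cells, 2 replicates each. The authors trimmed reads with cutadapt 4.2, mapped them to genome release 6 with Bowtie2 2.5.1, dropped duplicates using SAMtools 1.17 and computed RPKM coverage with deepTools 3.5.4 outside blacklisted regions. They averaged the replicates and called peaks on the average with MACS2 bdgpeakcall, with a cutoff set by hand. The deposited score was read as 10 times the summit height in RPKM, as this caller writes it, and divided by 10; the files do not state this, and all heights rest on it. RPKM scales with all mapped reads, so a library with more reads outside peaks has lower peaks and fewer above a fixed cutoff. Depth behind a peak is unknown. Peaks off 2L, 2R, 3L, 3R, 4 and X were left out (1853 PGC, 1908 somatic).

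Start sites came from Ensembl release 115, and 99.8% of its 30593 start codons read ATG in the RefSeq sequence used. Shares carry exact Clopper-Pearson intervals at the 95% level (scipy 1.17.1, Python 3.11.15). No test was made, since 1 averaged list per cell type gives no error. In simulated data with planted peaks, some of them beyond 500 bp, all 13945 genes were assigned as the rule requires. All 200 planted motifs were found. Named genes were those in neither list, those in the somatic list alone, the 8 highest of each list, the 5 lowest in PGCs, the 5 highest in PGCs without a somatic peak, and the 5 largest and smallest ratios; other members were named afterwards as examples, of ribosome position, partner or motif. Members, gene lists and motifs were chosen with earlier results of these data known. The ovary small RNA libraries were not used here.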

Additional observations from a re-analysis of the deposited data

How the results depend on the processing

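No paired analysis was possible because the lists hold the mean of the replicates, and for the same reason no replicate could be left out. Of 82 values recomputed under an alternative, 39 stayed within the interval of the reported value (counts within 1.5 times) and 43 did not. A distance of 250 bp gave a somatic peak at 20.5% of members (22.6% of all genes). It left 14 members with both (20.5% of all genes), 1 with a somatic peak alone (2.05%) and 14 with neither (51.5%). A distance of 1000 bp gave 50.7% (42.5%), and 36 (36.8%), 1 (5.71%) and 4 (36.5%) members in these classes, with the shares of all genes in brackets. It left 32 members with a PGC peak alone (21.1%), fewer than had both. Requiring the summit within 500 bp gave 5 members with a somatic peak alone (4.5% of all genes) and 11 with neither (47.3%). Peaks of at least 80 RPKM gave a PGC peak at 54.8% and a somatic peak at 6.85% of members. Of the members, 5 had both (6.8% of all genes), 0 a somatic peak alone (0.359%) and 33 neither (67.6%). Their median heights were 123.2 and 99.3 RPKM and their median widths 650 and 850 bp. The highest 5000 peaks of each list gave 50.7% and 16.4%. Of the members, 12 had both (12.4% of all genes), 25 a PGC peak alone (16.7%), 0 a somatic peak alone (2.09%) and 36 neither (68.8%). Their medians were 127.8 and 76.8 RPKM and their widths 700 and 375 bp. Members with no other start site within 1000 bp, 13 in all, gave 69.2% and 15.4%. Of these, 0 had both (19% of all such genes), 9 a PGC peak alone (18.3%) and 2 neither (58.1%). Their medians were 62.1 and 51.7 RPKM, over 9 and 2 genes, beside 83.5 and 61.6 RPKM over all such genes. Their widths were 200 and 50 bp, beside 300 and 200 bp. Higher limits and fewer genes lower such counts by construction. Under the last 3 alternatives, all protein-coding genes had PGC shares of 32%, 29.1% and 37.3% and somatic shares of 7.16%, 14.5% and 23.6%. The members' somatic share thus lay below that of all genes under some alternatives and above it under others. The 5′-most start site alone moved no member value. The following were chosen after seeing the data: a start site inside the peak (63% PGC, 13.7% somatic), the summit nearest to the member (53.4% and 17.8%), and a divergent partner within 250 bp (34.2% of members, beside 14.2% of all genes) or 1000 bp (79.5%, beside 36.2%). So were both alternatives for CAGCTG given next. In wider windows or at any start site, CAGCTG stayed between 54.8% and 64.4% of members, beside 17.7% to 26.1% of all genes. TATCGATA stayed between 20.5% and 21.9%, beside 9.36% to 10.2%, and GGTCACAC between 11% and 12.3%, beside 7.7% to 8.71%.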

Other observations

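The small-subunit genes tko and bonsai carry older names and fall outside the symbol rule. tko, whose mutants are sensitive to mechanical shock, had a PGC peak of 106.2 RPKM and no somatic peak. The peaks of bonsai reached 132.4 RPKM in the PGC list and 64.3 RPKM in the somatic list.

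Other nuclear genes of mitochondrial gene expression gave the following values. Of 15 mitochondrial aminoacyl-tRNA synthetase genes, which charge the transfer RNAs used by these ribosomes, 12 were open in the PGC list and 6 in the somatic list, and 7 promoters held CAGCTG (46.7%, interval 21.3 to 73.4%). Of 11 mitochondrial translation and assembly factor genes, a list that includes tko and bonsai, 8 had a peak in PGCs, 5 in somatic cells, and 7 held CAGCTG (63.6%, interval 30.8 to 89.1%). From base 0 to 44, 33.3% of the synthetase genes (interval 11.8 to 61.6%) and 27.3% of the factor genes (interval 6.02 to 61%) had a match, beside 30.1% of members. From base -50 to -1 these shares were 20% (interval 4.33 to 48.1%) and 45.5% (interval 16.7 to 76.6%), beside 17.8%. Of 10 mitochondrial DNA maintenance genes, 8 had a peak in PGCs, 4 in somatic cells, and 4 held CAGCTG (40%, interval 12.2 to 73.8%). Of the 11 germline genes used to check the sort, none had CAGCTG in its promoter, which allows a share of up to 28.5%. The X chromosome held 11 members, of which 10 were in the PGC list (90.9%, beside 52.4% of all X genes) and 2 in the somatic list (18.2%, beside 22.6%).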
